A study of Mus musculus with 17 samples.

Results

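The mouse mitochondrial chromosome encodes 37 genes, and their transcripts were followed across bulk RNA-seq libraries of kidney cortex. The set was every row of the count table whose gene name starts with mt-, which gave 13 protein-coding, 2 ribosomal RNA and 22 transfer RNA genes of 48795 genes in all. The 17 libraries were labelled as 5 WT, 5 GCERAd, 3 TRACK and 4 GCERAdT. GCERAd mice (genotype ATF4 KO in the labels) carried a floxed Atf4 gene on both alleles and a tamoxifen-inducible CreER driven by a part of the Ggt1 promoter, which is active in proximal tubules. Their deletion was induced at 6 weeks of age with 200 µL of tamoxifen at 20 mg/mL in cottonseed oil on each of 2 days. About a month later the mice of that experiment went through metabolic cages and a fast of 16 h. TRACK is a transgenic mouse model of kidney cancer, in which a constitutively active HIF1α is expressed from a proximal tubule promoter, and GCERAdT (TRACK-ATF4 KO in the labels) combines it with the ATF4 deletion. The age, tamoxifen and fasting of TRACK and GCERAdT mice, and any tamoxifen given to WT mice, are not given in the sources used here, and the labels give no sex for any group. They describe 3 to 4 mice per cohort, although 5 samples each carry the WT and GCERAd names. Nothing beyond a mouse number in the labels says that samples of a group came from separate animals, so p-values measure the spread between these samples.

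Mitochondria are abundant in the kidney cortex because tubule cells reabsorb solutes with ATP made by oxidative phosphorylation. The mitochondrial chromosome is transcribed from both strands into long precursors, and the transfer RNAs that lie between the messenger RNAs are cut out and so release them. The 13 proteins are core subunits of respiratory complexes I (mt-Nd1, mt-Nd2, mt-Nd3, mt-Nd4, mt-Nd4l, mt-Nd5 and mt-Nd6), III (mt-Cytb) and IV (mt-Co1, mt-Co2 and mt-Co3) and of the ATP synthase (mt-Atp6 and mt-Atp8). The other subunits, and the proteins that copy, transcribe and translate the chromosome, are encoded in the nucleus. The libraries were made from poly(A)-selected RNA, so ribosomal and transfer RNAs were measured from what passed that selection. Of the 37 genes, 28 lie on the plus strand and 9 on the minus strand of the annotation (GENCODE M21, GRCm38).

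Nuclear copies of mitochondrial genes matter for how such reads are counted, and 1 stretch shows why. The lines below give 60 bases of mt-Co2, a complex IV subunit, and of its nuclear copies Gm28661 and Gm13341, with capitals at the bases where Gm13341 differs.
mt-Co2, chrM:7223-7282, plus strand: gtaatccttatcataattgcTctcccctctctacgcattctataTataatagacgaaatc
Gm28661, chr1:24615296-24615355, minus strand: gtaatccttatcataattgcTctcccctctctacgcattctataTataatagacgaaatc
Gm13341, chr2:22587693-22587752, minus strand: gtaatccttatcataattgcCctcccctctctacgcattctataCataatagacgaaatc
Counted from the first base of mt-Co2, the differences of Gm13341 in this stretch are T231C and T255C, whereas Gm28661 has none. Over the first 681 of the 684 bases of mt-Co2, Gm28661 had 0 differences, so a read of 51 bases within them cannot be assigned to either of these loci by its sequence.

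Gm28661 belongs to a cluster of 7 annotated copies on chromosome 1 that spans 4663 bases at chr1:24611535-24616197. Gm10925 is identical to mt-Atp6 over 678 bases, Gm28437 to mt-Co3 over 783 bases, Gm10222 to mt-Nd4l over 294 bases and Gm28439 to the first 876 bases of mt-Nd4. Gm28438 differs from mt-Nd3 at 1 of 345 bases (T3C, counted from the first base of mt-Nd3). Gm29216 differs from the last 492 bases of mt-Co1 at 6 positions. On chromosome 2, Gm13340 shares 97.6% of its bases with mt-Co1. All 51-base windows of mt-Co2 were found in annotated nuclear transcripts, as were 99.9% of those of mt-Co3, 99.5% of mt-Atp6, 98.8% of mt-Nd4l, 98.0% of mt-Nd3, 62.2% of mt-Nd4 and 50.6% of mt-Co1. The share was 8.00% for mt-Nd2 and 7.22% for mt-Nd5, and it was 0 for mt-Cytb, mt-Nd1, mt-Nd6, mt-Atp8 and mt-Rnr1. These windows come from annotated transcripts alone, since no genome sequence was used, so copies outside annotated genes were not counted.

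A further set of sequences is shown because the counts of these transfer RNA genes separated libraries or groups. They carry leucine (mt-Tl1), serine (mt-Ts1), tryptophan (mt-Tw) and threonine (mt-Tt), and are given as the DNA of their own strand in lower case.
mt-Tl1, chrM:2676-2750, plus strand: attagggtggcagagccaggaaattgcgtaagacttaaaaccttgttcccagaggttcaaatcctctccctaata
mt-Ts1, chrM:6870-6938, minus strand: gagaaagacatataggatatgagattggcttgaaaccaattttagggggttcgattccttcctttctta
mt-Tw, chrM:4950-5016, plus strand: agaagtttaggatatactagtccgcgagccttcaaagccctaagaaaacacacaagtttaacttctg
mt-Tt, chrM:15289-15355, plus strand: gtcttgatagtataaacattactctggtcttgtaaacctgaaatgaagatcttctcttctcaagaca
mt-Tl1 lies directly between mt-Rnr2, which ends at base 2675, and mt-Nd1, which starts at base 2751. mt-Tw overlaps the end of mt-Nd2 by 2 bases, and mt-Ts1 lies opposite mt-Co1 with an overlap of 3 bases. The strand setting of the counting is not given, so reads of mt-Ts1 or mt-Nd6 and of RNA from the opposite strand cannot be told apart here.

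The libraries held 53688512 to 71364561 counts on genes, and several facts of the series bear on the mitochondrial values. Atf4 was at 74.8 to 102 CPM (counts scaled to the library total on genes) in WT and at 53.5 to 73.1 in GCERAd, a fitted log2 change of -0.38 (edgeR quasi-likelihood test, adjusted p = 0.0218). In GCERAdT it was at 85.2 to 108 CPM against 79.5 to 93.2 in TRACK (log2 0.17, adjusted p = 0.367), so the libraries labelled GCERAdT had no lower Atf4 count. A gene-level count does not separate the deleted exons, and cortex cells outside the Cre-expressing tubules keep the gene. Xist, the RNA of the inactive X chromosome, had 8296 to 25334 counts in WT and at most 391 elsewhere. On the Y chromosome, Uty, Ddx3y and Eif2s3y had 0 counts in WT and 1238 to 5116 in every other library, while Kdm5d had 18 in WT 2, 0 in the other WT libraries and 539 to 1282 elsewhere. Every comparison with WT therefore cannot be told apart from this difference in X- and Y-linked expression. The summed CPM of 6 skeletal muscle markers was 3.99 to 11.4 in WT and 0.682 to 1.67 elsewhere, and this difference came from Myh1 alone (3.39 to 10.4 CPM in WT, at most 0.11 elsewhere). Mylpf overlapped between all groups, Acta1 and Ckm were at most 0.349 CPM in any library, and Myh2 and Myh4 were at 0 in all. Proximal tubule markers (8 genes) summed to 6976 to 8613 CPM in WT, 7706 to 10690 in GCERAd, 4741 to 5270 in TRACK and 5121 to 6264 in GCERAdT, and 4 thick ascending limb markers to 5188 to 7831, 3264 to 4324, 3475 to 6362 and 4351 to 4796. Among the proximal tubule markers, Slc34a1 was at 862 to 1185 CPM in TRACK against 2722 to 3473 in WT, whereas Slc22a6 was at 548 to 741 against 323 to 386. Collecting duct markers (5 genes) summed to 821 to 1009 CPM in WT and to at most 559 in every other library, which is the same split as that of the mitochondrial share. Endothelial markers (4 genes) summed to 196 to 231 CPM in WT and 344 to 410 in TRACK, and red blood cell markers (3 genes) to 64.3 to 118 and 153 to 428. The part of these markers in the results was not tested. In bulk tissue, fewer cells of a type and less RNA per cell cannot be told apart.

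The libraries also fell into 2 kinds by the share of counts on processed pseudogenes, with the mitochondrial copies left out. That share was 0.0317% to 0.0377% in 8 kind A libraries (WT 1, 3, 4 and 5, GCERAd 1 and 2, GCERAdT 1 and 2) and 0.0574% to 0.0784% in 9 kind B libraries (WT 2, GCERAd 3, 4 and 5, all 3 TRACK, GCERAdT 3 and 4). TRACK had no kind A library and WT had only 1 of kind B. Over 183 immunoglobulin variable genes, whose use differs between individual mice, some libraries of a group were each other's closest match: WT 1 and WT 2 (Spearman's rho 0.631), GCERAd 2 and GCERAd 3 (0.473), and GCERAdT 2 and GCERAdT 3 (0.924). Each of these 3 pairs joins a kind A and a kind B library, and whether they come from the same mouse is not given. The authors' sequencing summary lists some sample names a second time with an added letter, without the group names used here. Repeat libraries of 1 mouse would enter the fits as separate samples. TRACK 1 and TRACK 2, both of kind B, were also a mutual best match (0.776). Libraries of different groups reached such values too, as GCERAd 1 with TRACK 2 (0.633) and GCERAdT 4 with TRACK 1 (0.713). The next-best values were 0.502 and 0.509 for WT 1 and 2, and 0.391 and 0.459 for GCERAd 2 and 3. For GCERAdT 2 and 3 they were 0.671 and 0.680, so only that pair stood far above its next-best match. Results are given below within kinds and with the pairs of libraries summed where that changed them.

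Per base of gene, mt-Co1 was the most abundant mitochondrial messenger RNA, with a mean of 37743 FPKM over all libraries. Below it came mt-Cytb at 21952 FPKM, mt-Nd1 at 19042, mt-Nd2 at 13823, mt-Nd5 at 9273 and mt-Nd4 at 8232. FPKM here is CPM divided by the length of the merged exons in kilobases, computed from the counts. The 6 genes together took 93.4% to 97.8% of all mitochondrial counts in each library.

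The ribosomal RNAs, which form the core of the mitochondrial ribosome, had mean levels of 1447 FPKM for mt-Rnr2 and 1274 FPKM for mt-Rnr1. The remaining messenger RNAs lay far below the top 6, at 340 FPKM for mt-Co2, 242 for mt-Atp6, 231 for mt-Atp8, 202 for mt-Co3, 120 for mt-Nd6, 86.8 for mt-Nd4l and 51.2 for mt-Nd3. In WT, neighbours in that order often overlapped within their spread, as with mt-Rnr2 at 1518 ± 201 FPKM (SD, n = 5) and mt-Rnr1 at 1292 ± 132, whereas mt-Co1 at 49071 ± 2869 and mt-Cytb at 28020 ± 1503 stood clear of each other. Leaving mt-Nd6 aside, 5 of the 6 lowest are those whose windows were almost all found in nuclear transcripts, and the other, mt-Atp8, shares its last 43 bases with mt-Atp6. These 6 genes held 0.0703% to 1.08% of mitochondrial counts. On chromosome 1, Gm10925 (to base 24614651) and Gm28661 (from base 24614885), copies of mt-Atp6 and mt-Co2, flank bases without an annotated copy. mt-Atp8 lies between mt-Co2 and mt-Atp6, and whether those bases hold a copy of it was not tested. The transfer RNAs were near the limit of the data, since 2 of them (mt-Tk and mt-Ts2) had no count in any library and 15 of 22 never reached 100 counts. A limit of 3 counts corresponds to 0.042 to 0.0559 CPM, and it covers counting error only.

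**Figure D1:**
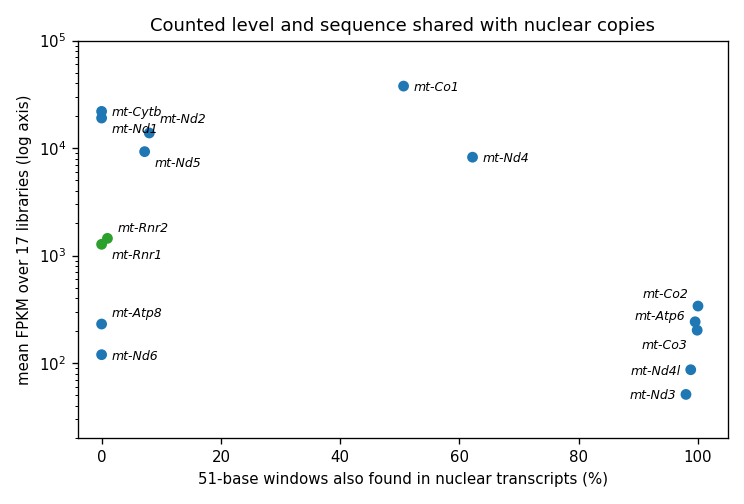
Mean level over the 17 libraries (FPKM, log axis) of the messenger RNAs (blue) and ribosomal RNAs (green) against the percent of their 51-base windows also found in annotated nuclear transcripts (x axis), 1 point per gene. The 5 genes at 98.0% or more have means of 51.2 to 340 FPKM, while mt-Cytb, mt-Nd1, mt-Nd2 and mt-Nd5, at 8.00% or less, have means of 9273 to 21952. The genes mt-Nd6 (120) and mt-Atp8 (231), at 0% of windows, are as low as the genes with annotated copies. The ribosomal RNAs have 1274 and 1447 FPKM at 0% and 0.98%.

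The mitochondrial share of all counts was highest in WT. It was 18.2%, 18.5%, 17.1%, 19.1% and 17.8% in WT 1 to 5, and 15.1%, 16.3%, 15.6%, 12.4% and 12.5% in GCERAd 1 to 5. In TRACK 1 to 3 it was 11.6%, 12.3% and 11.9%, and in GCERAdT 1 to 4 it was 12.3%, 14.7%, 15.0% and 12.0%. All WT libraries lay above all others, while the GCERAdT range crossed those of both TRACK and GCERAd. Group means were 18.2% ± 0.754 (SD, n = 5) in WT, 14.4% ± 1.83 (n = 5) in GCERAd, 12.0% ± 0.356 (n = 3) in TRACK and 13.5% ± 1.59 (n = 4) in GCERAdT. The widest 95% Wilson interval of such a share was 0.021 percentage points, so counting error was small beside the spread between libraries.

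**Figure D2:**
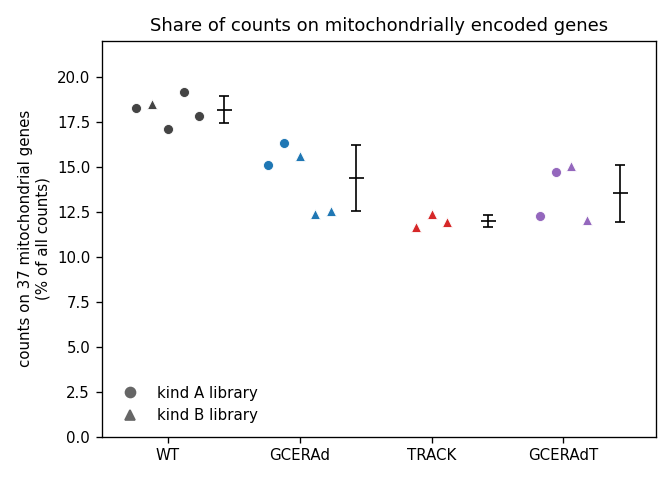
Share of all counts on genes that fell on the 37 mitochondrial genes (percent, y axis) in each of the 17 libraries by group, with kind A and kind B libraries marked and the bars giving group mean and SD. The 5 WT libraries sit between 17.1% and 19.1%, above all 12 others, which sit between 11.6% and 16.3%.

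As ratios of group means, the share in GCERAd was 0.792 times that in WT (log2 -0.34) and the share in TRACK was 0.659 times that in WT (log2 -0.60). The ratio of GCERAdT to TRACK was 1.13 (log2 0.17) and that of GCERAdT to GCERAd 0.94 (log2 -0.09), both with overlapping libraries. These are sums over the set, and no test was made on them. Within kind A, WT averaged 18.1% and GCERAd 15.7%, and within kind B the single WT library had 18.5% and GCERAd averaged 13.5%. GCERAdT averaged 13.5% in both kinds. The paired libraries that crossed the kinds differed little in this sum, by log2 0.02 for WT 1 and 2, -0.06 for GCERAd 2 and 3 and 0.03 for GCERAdT 2 and 3 (kind B over kind A).

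The make-up of the mitochondrial counts also differed between WT and the other groups. mt-Co1, the catalytic subunit of complex IV, held 41.1%, 44.4%, 41.3%, 40.9% and 41.0% of mitochondrial counts in WT 1 to 5. It held 35.4%, 36.3%, 39.9%, 35.1% and 36.6% in GCERAd 1 to 5, which all lay below WT. In TRACK it held 39.0% ± 1.10 (n = 3) and in GCERAdT 38.4% ± 1.94 (n = 4), where GCERAdT 3 at 41.2% entered the WT range.

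mt-Nd2, a membrane subunit of complex I, went the other way. It held 8.29% to 8.97% of mitochondrial counts in WT, 9.91% to 10.7% in GCERAd, 10.0% to 10.1% in TRACK and 9.64% to 10.6% in GCERAdT, so WT overlapped no other group. mt-Nd5, another membrane subunit of complex I, held 9.17% to 10.4% in WT and 12.5% to 13.5% in TRACK, while GCERAd (10.1% to 13.2%) overlapped both and GCERAdT (11.4% to 14.1%) overlapped GCERAd and TRACK but not WT. The 7 complex I messenger RNAs together held 36.3% to 39.4% in WT and 40.3% to 44.3% in the other 12 libraries. Per count, mt-Co1 exceeded mt-Nd2 by a factor of 4.61 to 5.35 in WT and 3.26 to 4.28 elsewhere. Such shares sum to a fixed total, so a lower share of 1 gene raises the others.

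**Figure D3:**
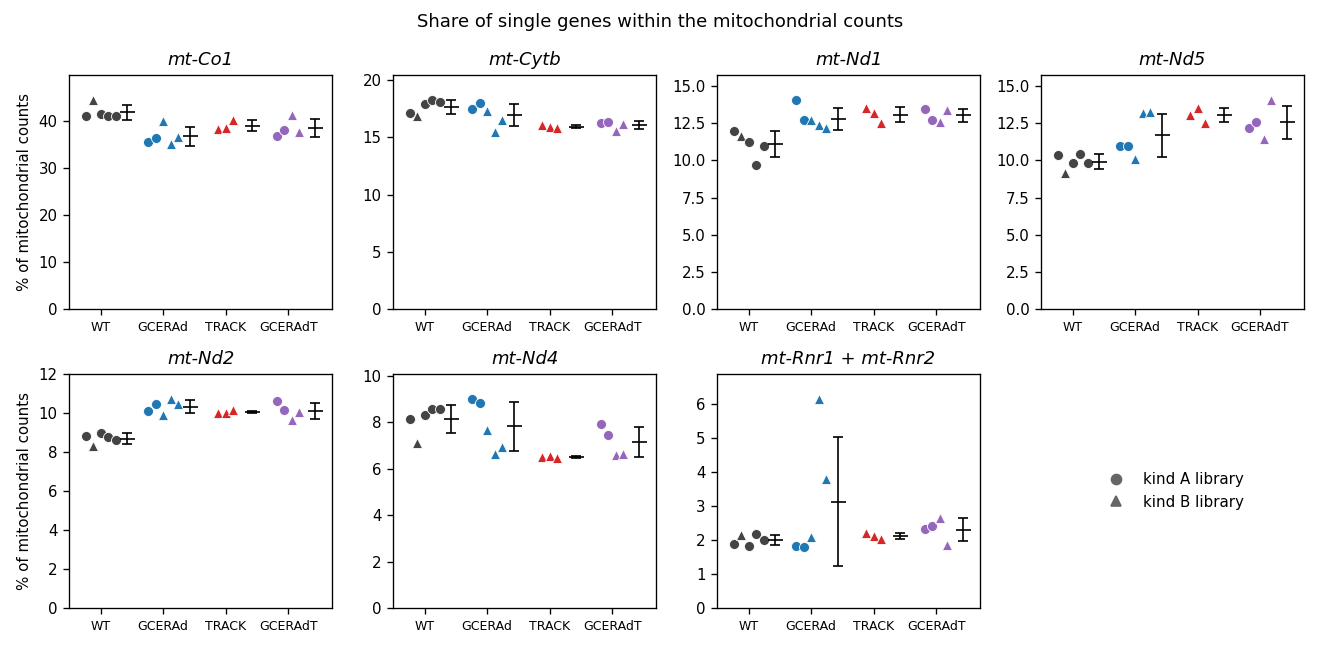
Share of the mitochondrial counts (percent, y axes) held by single genes in each library, by group and library kind, with group means and SD. mt-Co1 is highest in WT (41.8% ± 1.49) while mt-Nd2 is lowest there (8.70% ± 0.26), and the other groups lie on the opposite side for mt-Nd2.

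In the GCERAd against WT comparison, which asks what the tubule deletion of Atf4 goes with, 2 of 25 mitochondrial genes tested were lower and none was higher, beside 27.6% of all 11581 genes called in either direction and 13.5% called lower. The other 12 members were under a mean of 1 FPKM in both groups. Scaling to library totals alone moved the split of all called genes from 1638 higher and 1560 lower to 1248 and 2049. Fits used the quasi-likelihood test of edgeR, and p-values were adjusted by Benjamini-Hochberg over all genes tested. mt-Co1 was at 74875, 81981, 70677, 78344 and 73193 CPM in WT 1 to 5. In GCERAd 1 to 5 it was at 53541, 59154, 62325, 43300 and 45830 CPM. Every GCERAd library lay under every WT library, and mt-Co1 fell by 0.46 on the log2 scale (SE 0.157, adjusted p = 0.0469). That call was lost when any 1 of the 10 libraries other than GCERAd 3 was left out (adjusted p = 0.0574 to 0.0922, log2 between -0.53 and -0.40 over all 10). With kind B libraries alone no mitochondrial gene was called by edgeR (2 at an unadjusted p under 0.05), beside 0.842% of genes, and mt-Co1 had a log2 difference of -0.63 there (adjusted p = 0.502), with WT 2 as the only WT library. With WT 1 and 2 and GCERAd 2 and 3 summed, 1 gene was called, beside 23.8%. It was mt-Ts1, and the call for mt-Co1 was lost.

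The other called gene was mt-Ts1, the minus-strand serine transfer RNA shown above. Its counts were 96, 0, 50, 49 and 117 in WT 1 to 5 and 9, 3, 0, 0 and 0 in GCERAd 1 to 5 (fitted log2 -4.63, SE 1.14, adjusted p = 0.0107). The WT library at 0 was WT 2, the only one of kind B, and kind B libraries of every group had at most 1 count. Among kind A libraries, the 4 WT had 49 to 117 counts, the 2 GCERAd 3 and 9, and the 2 GCERAdT 1 and 6. The kind A fit gave log2 -3.73 (edgeR, adjusted p = 0.00261). That fit called 4 mitochondrial genes beside 27.4% of all genes: mt-Ts1, mt-Co1 (-0.36) and mt-Rnr2 (-0.39) lower and mt-Nd4l (1.43) higher. No single library left out ended the call for mt-Ts1 in the comparison of all libraries. mt-Ts1 lies between mt-Co1 and mt-Co2. On chromosome 1, their copies Gm29216 (from base 24615706) and Gm28661 (to base 24615565) flank bases without an annotated copy. Whether those bases hold a copy of mt-Ts1 was not tested.

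The other abundant messenger RNAs were not called by edgeR between GCERAd and WT, whereas DESeq2 called mt-Cytb lower (adjusted p = 0.0161) beside mt-Co1 and mt-Ts1. mt-Cytb, the complex III subunit, averaged 32055 ± 1719 CPM in WT and 24516 ± 4398 in GCERAd, with log2 -0.33 (adjusted p = 0.12). For mt-Nd4 the log2 difference was -0.32 (adjusted p = 0.178). mt-Nd1, mt-Nd2 and mt-Nd5 had log2 differences of -0.07, -0.03 and -0.06, smaller in size than that of mt-Co1 although nothing tested one gene against another. Of the 25 genes tested, 18 had a difference below 0, with a median of -0.32 beside -0.0005 over all genes tested.

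mt-Rnr1 and mt-Rnr2 had differences above 0, 0.43 (adjusted p = 0.244) and 0.22 (adjusted p = 0.58), and without GCERAd 4 that of mt-Rnr2 was -0.10. mt-Rnr2 was at 1634, 1810, 2130, 4726 and 3030 CPM in GCERAd 1 to 5, and mt-Rnr1 at 1102, 1104, 1137, 2860 and 1724. GCERAd 4 and GCERAd 5 stood above the other 3. The ribosomal RNAs made up 6.14% of mitochondrial counts in GCERAd 4 and 3.80% in GCERAd 5, against 1.79% to 2.64% in the other 15 libraries. Those same libraries had the lowest mitochondrial shares of their group. They also stood apart in summed markers. In GCERAd 1 to 5, proximal tubule markers were at 9771, 10690, 9794, 7711 and 7706 CPM. Collecting duct markers were at 526, 519, 559, 319 and 318 CPM. Endothelial markers, at 225, 236, 215, 238 and 234 CPM, showed no such split. What sets GCERAd 4 and 5 apart was not tested.

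Between TRACK and WT, 16 of 25 mitochondrial genes tested were lower and 1 was higher, beside 45.6% of 11967 genes called in either direction, 22.6% called lower and 23.0% called higher. The 3 TRACK libraries are all of kind B, so the call for each gene has to be read with its value against the single kind B library WT 2. mt-Cytb was at 31221, 31132, 30695, 34949 and 32275 CPM in WT 1 to 5 and at 18755, 19670 and 18842 in TRACK 1 to 3. The groups lay far apart, with a fall of 0.76 on the log2 scale (SE 0.0815, edgeR adjusted p = 7.04e-05). mt-Co1 fell by 0.72 (SE 0.0872, adjusted p = 0.000159), from 75814 ± 4432 CPM to 46656 ± 1855. mt-Nd4 fell by 0.94 (SE 0.089, adjusted p = 3.26e-05), from 14779 ± 1197 to 7799 ± 252 CPM. With kind B libraries alone, these genes stayed called, at log2 -0.72, -0.83 and -0.77, with WT 2 as the only WT library and assumed to vary like the TRACK libraries.

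Of the abundant complex I messenger RNAs, mt-Nd1, mt-Nd2 and mt-Nd5 had smaller differences than mt-Nd4, although no test set one gene against another. mt-Nd2 fell by 0.41 (edgeR adjusted p = 0.00172) and mt-Nd1 by 0.38 (adjusted p = 0.00686), while mt-Nd5 had a difference of -0.22 (adjusted p = 0.07) and was not called. The ribosomal RNAs mt-Rnr1 and mt-Rnr2 fell by 0.56 (adjusted p = 0.00248) and 0.52 (adjusted p = 0.00317). mt-Nd6, the only messenger RNA on the minus strand, fell by 0.88 (adjusted p = 0.0381), a call lost without WT 4 or any 1 TRACK library (adjusted p up to 0.115). Over 19 alternatives, kind B libraries alone among them, the log2 difference of mt-Nd6 ran from -1.74 to -0.54. It ran from -0.47 to -0.32 for mt-Nd1, -0.44 to -0.36 for mt-Nd2, -0.65 to -0.45 for mt-Rnr1 and -0.71 to -0.47 for mt-Rnr2. Among transfer RNAs, mt-Ti (isoleucine) fell by 0.55 (adjusted p = 0.0087), and mt-Tt was the gene that rose, by 1.25 (adjusted p = 0.0119), although with kind B libraries alone its difference was 0.42 (adjusted p = 0.442).

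Among messenger and ribosomal RNAs, the largest differences between TRACK and WT were those of the low messenger RNAs, and they moved with the library kind. mt-Atp6 was at 306, 86.5, 151, 592 and 511 CPM in WT 1 to 5 and at 20.1, 21.9 and 19.5 in TRACK 1 to 3. mt-Co2 was at 350, 52.7, 259, 520 and 705 CPM in WT and at 22.2, 39.9 and 22.3 in TRACK. In both genes the lowest WT library was WT 2. The fitted log2 differences were -4.02 for mt-Atp6, -3.75 for mt-Co2, -3.32 for mt-Co3, -2.68 for mt-Nd4l, -1.73 for mt-Nd3 and -4.62 for mt-Atp8, all called (edgeR adjusted p between 0.000635 and 0.0331). The calls for mt-Nd3 and mt-Atp8 were lost when any 1 TRACK library was left out (adjusted p up to 0.0936 and 0.0553). Without WT 3 the difference of mt-Nd3 was -1.01, and without WT 4 that of mt-Atp8 was -2.84, both still called. Among kind B libraries they were -2.09 for mt-Atp6, -1.21 for mt-Co3 and -0.98 for mt-Atp8, still called, and -0.91 for mt-Co2, -0.92 for mt-Nd4l and -0.13 for mt-Nd3, no longer called. In all, 9 mitochondrial genes were called among kind B libraries, all lower, beside 12.3% of genes: mt-Rnr2, mt-Tm (methionine transfer RNA), mt-Co1, mt-Atp8, mt-Atp6, mt-Co3, mt-Nd4, mt-Nd6 and mt-Cytb. With library kind as a covariate 10 were called, all lower, beside 23.2%. mt-Ts1, also called against WT, had 0, 1 and 0 counts in TRACK, and no fold is given for it. Over the 25 genes the median log2 difference was -0.76, against -0.01 over all genes tested.

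**Figure D4:**
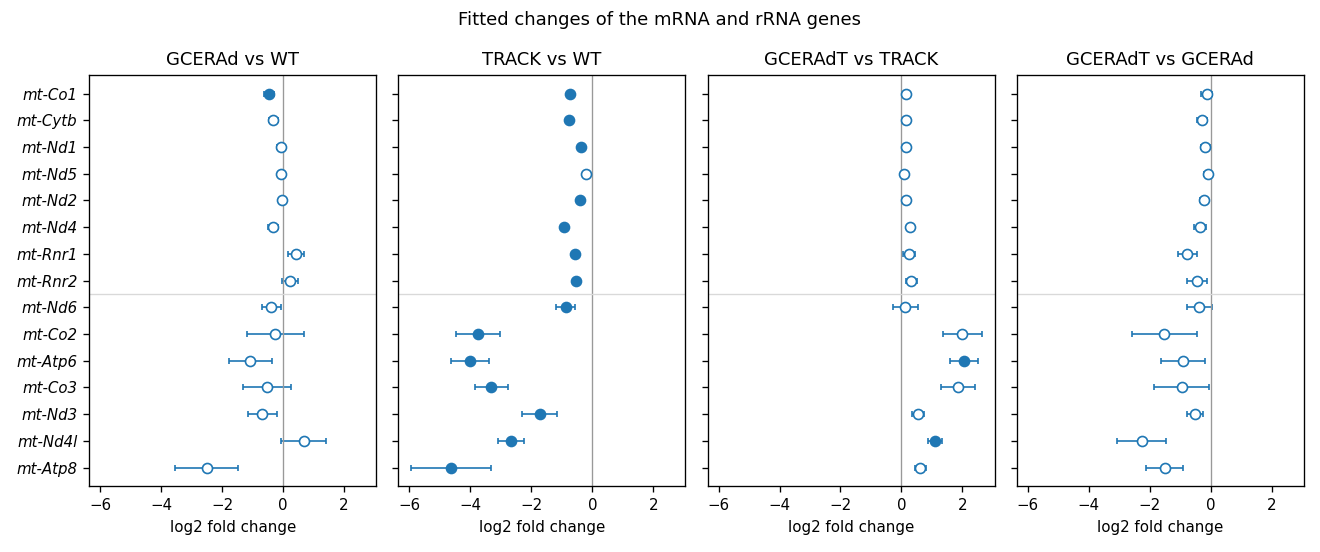
Fitted log2 differences (x axes, edgeR, bars are standard errors) of the 13 messenger and 2 ribosomal RNA genes in 4 comparisons, with filled points for called genes. In TRACK against WT every gene but mt-Nd5 is called lower, while at most 2 of these genes are called in each of the other panels.

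GCERAdT against TRACK asks whether the deletion goes with a difference in the tumour model. Here 2 of 26 mitochondrial genes tested were higher and none lower, beside 7.09% of 11928 genes called and 2.81% called higher. mt-Atp6 was at 20.1, 21.9 and 19.5 CPM in TRACK and at 90.1, 114, 117 and 23.3 in GCERAdT 1 to 4 (log2 2.06, SE 0.459, edgeR adjusted p = 0.0285). mt-Nd4l was at 4.13, 5.30 and 4.77 CPM in TRACK and at 10.3, 14.5, 7.70 and 8.53 in GCERAdT (log2 1.09, SE 0.229, adjusted p = 0.0228). Neither gene overlapped between the groups, and GCERAdT 4 came close to TRACK for mt-Atp6. Both genes have identical nuclear copies, and no mitochondrial gene was called by edgeR with kind B libraries alone (8 at an unadjusted p under 0.05, beside 1.86% of genes called) or with library kind as a covariate (7, beside 3.87%). The differences stayed above 0 in these fits, at 1.77 and 1.78 for mt-Atp6 and 0.76 in both for mt-Nd4l. DESeq2 called 4 over all libraries, beside 13.1% of all genes. The call for mt-Atp6 was lost without any 1 of the TRACK libraries or GCERAdT 1, 2 or 3 (adjusted p up to 0.0916), and that for mt-Nd4l without any 1 TRACK library or GCERAdT 1 (up to 0.0833). With GCERAdT 2 and 3 summed, 1 gene was called, beside 4.17%. It was mt-Nd4l, and the call for mt-Atp6 was lost.

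The abundant genes were not called between GCERAdT and TRACK. mt-Co1 was at 44541, 47419 and 48009 CPM in TRACK 1 to 3 and at 45199, 55793, 62012 and 45125 in GCERAdT 1 to 4. The libraries overlapped for mt-Co1, with GCERAdT 2 and 3, the closest pair by immunoglobulin genes, above TRACK and the other 2 within it. Of the 26 genes tested, 21 had a difference above 0, with a median of 0.27 against 0.01 over all genes.

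In the GCERAdT against GCERAd comparison, 1 of 26 mitochondrial genes was called, higher, beside 19.2% of 11816 genes called and 9.39% called higher. With library totals alone the split of all called genes went from 1109 higher and 1157 lower to 1782 and 616. It was mt-Tw, the tryptophan transfer RNA, at 6.23, 6.51, 4.51, 7.00 and 4.33 CPM in GCERAd 1 to 5 and at 12.6, 12.3, 7.22 and 7.82 in GCERAdT 1 to 4. The groups did not overlap, and mt-Tw rose by 0.69 on the log2 scale (SE 0.214, edgeR adjusted p = 0.0459). The call was lost without GCERAd 1, 2, 3 or 5 or GCERAdT 1 or 2 (adjusted p up to 0.145). It was also lost with 3 pairs of libraries summed, where edgeR called no mitochondrial gene (3 at an unadjusted p under 0.05) beside 9.89% of genes. Same-numbered samples of these groups shared a library kind, so a block on replicate number also follows the kinds. With that block 3 genes were called, beside 31.9% of all genes: mt-Tw higher (log2 0.59), and mt-Nd3 (-0.62) and mt-Nd4 (-0.40) lower. Among kind A libraries, 10 were called beside 27.2% of genes, with mt-Tw higher and mt-Ti, mt-Co2, mt-Atp8, mt-Atp6, mt-Co3, mt-Nd3, mt-Nd4, mt-Nd6 and mt-Nd4l lower, from 2 libraries each. With kind B libraries alone none was called by edgeR (1 at an unadjusted p under 0.05), beside 2.96% of all genes.

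The difference between both ATF4 contrasts, (GCERAdT minus TRACK) minus (GCERAd minus WT), was tested with all 17 libraries. It was called for 3 of 27 mitochondrial genes, all above 0, beside 25.1% of 12208 genes called and 12.3% called higher. With library totals alone the split over all genes went from 1505 above 0 and 1565 below to 1902 and 1194. The values were 1.07 for mt-Tw (SE 0.361, edgeR adjusted p = 0.0392), 0.61 for mt-Co1 (SE 0.209, adjusted p = 0.0427) and 3.13 for mt-Atp6 (SE 1.03, adjusted p = 0.0342). For mt-Co1 the log2 difference was -0.46 in GCERAd against WT, where all 5 GCERAd libraries were below all WT, and 0.14 in GCERAdT against TRACK, with overlap. With library kind as a covariate edgeR called none of the 27 (3 at an unadjusted p under 0.05), beside 21.9% of genes, and mt-Co1 had an adjusted p of 0.0623 at a value of 0.62. DESeq2 without the covariate called 6, beside 28.1% of all genes. With 2 pairs of libraries summed, edgeR called mt-Ts1, mt-Atp6 and mt-Nd4, beside 24.4% of genes. With 3 pairs summed it called mt-Ts1 and mt-Atp6, beside 21.7%. mt-Tw and mt-Co1 were called in neither of these fits. Without single libraries, the call for mt-Co1 was lost in 12 of 17 cases (each WT, each TRACK, GCERAd 4 and 5, GCERAdT 2 and 3), that for mt-Atp6 in 8 (each TRACK, WT 4 and 5, GCERAdT 1, 2 and 3) and that for mt-Tw in 7 (WT 1 and 4, GCERAd 3 and 5, TRACK 1, GCERAdT 1 and 2), with adjusted p up to 0.0975, 0.0792 and 0.12.

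Some mitochondrial genes separated the library kinds across all 4 groups. mt-Tl1 had 0 to 9 counts in the 8 kind A libraries and 4757 to 11347 in the 9 kind B libraries. In the closest pairs it went from 0.0896 to 190 CPM (WT 1 to WT 2), from 0 to 104 (GCERAd 2 to 3) and from 0.159 to 162 (GCERAdT 2 to 3). mt-Td, an aspartate transfer RNA, had at most 3 counts in kind A and 48 to 165 in kind B. Transfer RNAs as a whole were 0.0195% to 0.0326% of mitochondrial counts in kind A and 0.107% to 0.204% in kind B.

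Within the same pairs (kind B over kind A), mt-Nd6 was higher by log2 1.23, 0.97 and 1.19, mt-Tm by 1.16, 1.22 and 1.04, and mt-Tt by 1.21, 2.26 and 1.37. mt-Tw, the gene called between GCERAdT and GCERAd, differed by -0.62, -0.53 and -0.76. The genes with near-identical nuclear copies were lower in kind B, with mt-Co2 at -2.73, -4.45 and -1.81, mt-Co3 at -2.60, -2.48 and -1.06 and mt-Nd4l at -1.89, -2.67 and -0.91. mt-Atp6 was at -1.82 and -2.80 in the WT and GCERAd pairs and at 0.04 in the GCERAdT pair. mt-Cytb, without such a copy, differed by 0.00, -0.12 and -0.04.

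**Figure D5:**
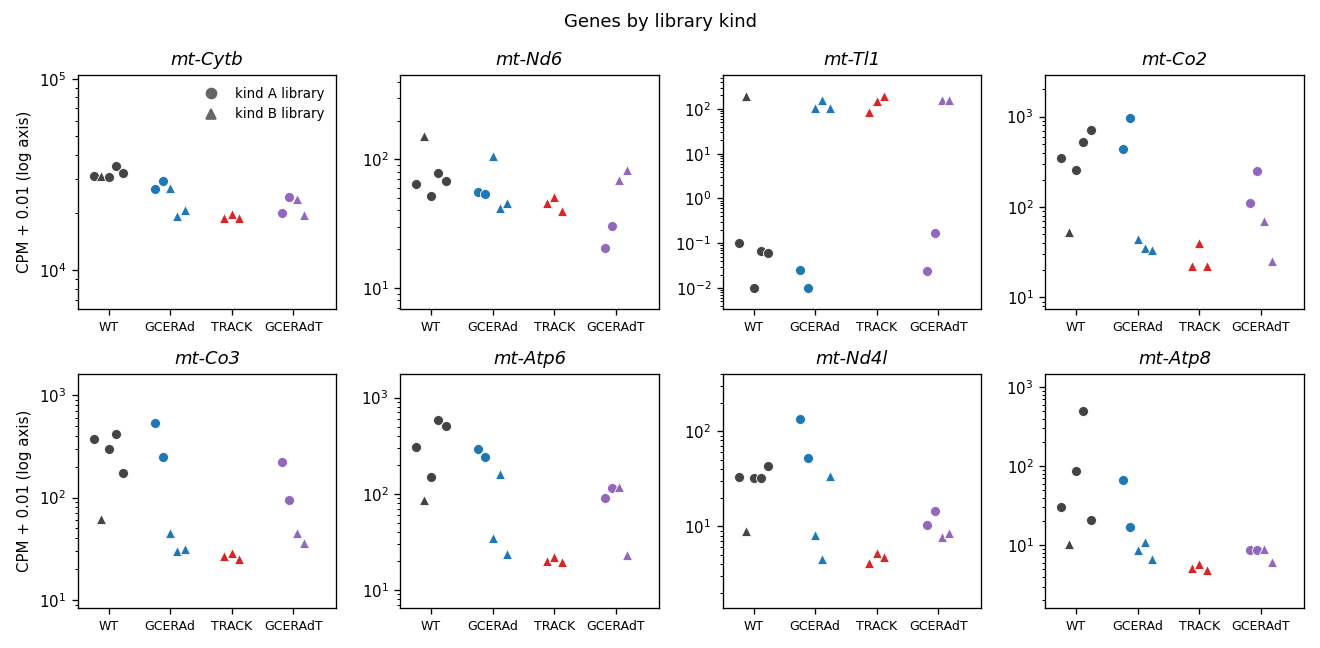
Levels of 8 mitochondrial genes (CPM with 0.01 added, log axes) by group, with circles for kind A and triangles for kind B libraries. mt-Tl1 has 0 to 9 counts in kind A and 4757 to 11347 in kind B, and the genes with nuclear copies are lower in most kind B libraries, while mt-Cytb shows no such split in WT.

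Summed counts on the chromosome 1 copies also separated the library kinds, although single copies did not always move with their mitochondrial partners. The 7 copies summed to 9412 to 48394 counts (median 33599) in kind A libraries and to 141 to 2921 (median 253) in kind B libraries. The other 7 copies in the table, on other loci, had 4128 to 7090 counts in kind A and 966 to 21709 in kind B. The most counted copies were Gm10925 (copy of mt-Atp6), with a mean of 4807 counts over the 17 libraries, Gm28437 (mt-Co3) with 4177, Gm13340 (mt-Co1) with 4156, Gm29216 (mt-Co1) with 2574 and Gm28661 (mt-Co2) with 1986. Gm13340 had 21468 counts in TRACK 2 and 8156 in GCERAdT 3. Gm29216 went from 9629 to 49 counts between WT 1 and WT 2 and from 3316 to 35 between GCERAd 2 and GCERAd 3, where mt-Co1 differed by log2 0.13 and 0.08. Gm28438 (mt-Nd3) went from 1448 to 1574 counts between WT 1 and WT 2, where mt-Nd3 differed by -1.26. Gm10925 went from 1489 to 82 counts between GCERAdT 2 and GCERAdT 3, where mt-Atp6 differed by 0.04. How the counting treated reads with several matches is not given in the sources used here. The levels of mt-Atp6, mt-Co2, mt-Co3, mt-Nd3 and mt-Nd4l are therefore uncertain, as are those of mt-Nd4 and mt-Co1 in the stretches that have copies. mt-Atp8 and mt-Ts1 lie between genes that have copies on chromosome 1, so their levels may be uncertain too. Adding the copies to the mitochondrial counts left the share ratios of the groups at log2 -0.34 for GCERAd and -0.60 for TRACK against WT.

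Nuclear genes that maintain, transcribe and process the mitochondrial chromosome were looked at beside it. Between GCERAd and WT, 8 of 52 such genes rose and 3 fell (21.2% of the list), beside the 27.6% of all genes called. Lrpprc, which binds and stabilises mitochondrial messenger RNAs, rose by 0.70 on the log2 scale (edgeR adjusted p = 0.000162), from 80.9 to 91.4 CPM in WT to 121 to 150 in GCERAd. It was at 139 to 150 CPM in TRACK and 109 to 157 in GCERAdT, so WT lay below every other group. Between GCERAdT and TRACK 3 rose and none fell (5.77% of the list, near the 7.09% of all genes). They were Twnk, the helicase of mitochondrial DNA (log2 0.59, adjusted p = 0.00345), Ssbp1, its single-strand binding protein (0.40, adjusted p = 0.0208), and Top1mt, a mitochondrial topoisomerase (0.40, adjusted p = 0.0167). Between TRACK and WT 5 rose and 17 fell, with a median of -0.12 (42.3% of the list, beside 45.6% of all genes). Between GCERAdT and GCERAd 3 fell and none rose (5.77%, beside 19.2% of all genes). The transcription factor Tfam (log2 0.16, adjusted p = 0.158 for GCERAd against WT) was named after its values were seen.

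Among nuclear-encoded subunits of complexes I, III, IV and V, 1 of 78 rose and 13 fell between GCERAd and WT, with a median of -0.15 beside -0.0005 over all genes. That is 17.9% of the list called, beside 27.6% of all genes. The complex IV subunits Cox7b and Cox5b fell by 0.61 (edgeR adjusted p = 0.00204) and 0.48 (adjusted p = 0.00425). Cox7a1, the muscle and heart form, fell by 0.59 (adjusted p = 0.00851). Cox7b and Cox5b were at 425 to 493 and 369 to 479 CPM in WT and at most 376 and 340 in every other library. Cox7a1 was at 8.38 to 12.7 CPM in WT and 6.16 to 9.06 in TRACK. Cox8b, also a muscle form, was at 0.855 to 3.47 CPM in WT and at 0 to 0.538 in GCERAd (adjusted p = 0.00875), and had no count in any TRACK or GCERAdT library. Of the skeletal muscle markers only Myh1 was higher in WT, as given above, and its part was not tested. Between TRACK and WT, 2 of 79 subunits rose and 26 fell (35.4%, beside 45.6% of all genes). Those that rose, Ndufa4l2 (log2 5.01, adjusted p = 7.13e-07) and Cox4i2 (log2 3.18, adjusted p = 0.000162), are known hypoxia-induced genes of the respiratory chain. Both were also higher in GCERAdT than in GCERAd (4.86 and 4.98, adjusted p = 1.56e-08 and 3.25e-05), as was Cox6a2 (1.13, adjusted p = 0.0366). In all, 3 of 78 subunits rose and 2 fell between GCERAdT and GCERAd (6.41%, beside 19.2% of all genes).

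Between GCERAdT and TRACK, edgeR called none of 78 subunits (16 at an unadjusted p under 0.05, and 5 called by DESeq2) and none of 77 mitochondrial ribosomal proteins (11, and 2 by DESeq2). The ribosomal proteins gave 3 higher and 5 lower in GCERAd against WT, with Mrps6 (-0.84, adjusted p = 0.000152) and Mrpl23 (-0.98, adjusted p = 0.0159) lower and Mrpl16 (0.61, adjusted p = 0.000219) higher. These are 10.4% of the list, beside 27.6% of all genes. In WT, Mrps6, Mrpl23 and Mrpl16 were at 58.3 to 82.2, 10.5 to 21.2 and 28.1 to 33.1 CPM. In TRACK, they were at 38.1 to 66.9, 6.08 to 8.17 and 36.6 to 42.3 CPM. In TRACK against WT, 5 rose and 30 fell, with a median of -0.16 (45.5%, beside 45.6%). In GCERAdT against GCERAd 1 rose and 8 fell (11.7%, beside 19.2%). For the difference between the contrasts, 5 of 52 maintenance and transcription genes were above 0 and 4 below, 11 of 79 subunits above and 2 below, and 4 of 77 ribosomal proteins above and 5 below. The lists had 17.3%, 16.5% and 11.7% called, all under the 25.1% of all genes. The largest were Atp5l (2.68, edgeR adjusted p = 0.0424), Cox4i2 (1.82) and Mrpl23 (1.74). Atp5l spread widely, over 40.4 to 188 CPM in WT, 22.7 to 146 in GCERAd and 29.3 to 147 in GCERAdT. In TRACK, which has kind B libraries only, it was at 25.2 to 27.6. Mrpl23 was at 5.41 to 12.7 CPM in GCERAd and 7.56 to 16.2 in GCERAdT. The values of these genes were not split by library kind.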

How the data were processed

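RNA of kidney cortices (5 to 10 mg) was sequenced by the authors from stranded poly(A) libraries, with paired-end reads stated as 51 bases. Their sequencing summary lists more bases per cluster for some libraries than for others, without the sample names used here. The names listed again with an added letter had fewer bases per cluster than the same names without it. Reads of some libraries may therefore have been longer than 51 bases, and whether this goes with the library kinds is not given. The 51-base windows would not describe such longer reads. The sources name bcl2fastq 2.20, Cutadapt, STAR and HTSeq-count on GRCm38, and the authors deposited raw counts per gene. The annotation release, strand setting and treatment of reads with several matches are not given in the sources used here. The table had 48795 genes, of which 663 had no name and 360 no length in GENCODE M21. FPKM and CPM were computed here from the deposited counts.

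Groups were taken from the labels. Counts were fitted in R 4.3.3 with edgeR 4.0.16 (TMM scaling, quasi-likelihood test) for the 2 groups compared, and with all 17 samples for the difference between contrasts. Genes with a mean of at least 1 FPKM in either group were tested, and those with p of at most 0.05 after Benjamini-Hochberg adjustment were called. The procedure was tested on simulated data with the same spread for all genes (dispersion 0.02). Changes of log2 0.5 were recovered in 64% of cases for GCERAd against WT and 34% for GCERAdT against TRACK. The share was 41% for TRACK against WT, 51% for GCERAdT against GCERAd and 8% for the difference between contrasts. At log2 1 it was 83% for the difference and 94% to 98% elsewhere. A gene that was not called may therefore still differ. Alternatives were DESeq2 1.42.0, RLE scaling, library totals, other filters, nuclear-only scaling, a replicate block, library kind, summed pairs of libraries, and each library left out. Library kind within strata and the GCERAdT pair summed were added after seeing the data. The members and lists were chosen with earlier results of these data known.

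Named were all mitochondrial messenger and ribosomal RNAs, the 5 transfer RNAs with the highest mean, called members, the 8 largest called changes of the lists in GCERAd against WT and the 3 largest elsewhere, the label checks and the 5 most counted nuclear copies. Other genes named were chosen after their values were seen. Same-numbered samples of GCERAdT and GCERAd deviated together from their group means (correlation 0.416, 0.536, 0.512 and 0.387 over 12181 genes), which numbers 1 and 2 of kind A and 3 and 4 of kind B share. In no other comparison did all pairs pass 0.1.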

Additional observations from a re-analysis of the deposited data

Results flagged for a closer look

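In groups of 4 or 5 libraries, 8 of 66 combinations of group and measure had a library far from the others. A measure was a gene, the mitochondrial share or the ribosomal RNA share. Independent, normally distributed values would give about 1 in 20, and values of genes in the same libraries are not independent. In WT these were mt-Atp8 in WT 4 (493.8 CPM against 10.3 to 87.1), mt-Nd3 in WT 3 (72.4 against 9.34 to 22.3), and mt-Nd6, mt-Tl1 and mt-Tt in WT 2. The values in WT 2, the only kind B library of that group, were 151 CPM for mt-Nd6 (others 52.2 to 79.0), 190 for mt-Tl1 (others 0 to 0.0896) and 2.67 for mt-Tt (others 1.00 to 1.36). In GCERAd, mt-Atp8 was at 66.6 CPM in GCERAd 1 (others 6.75 to 16.8) and mt-Nd6 at 106 in GCERAd 3 (others 41.6 to 55.7). In GCERAdT, mt-Atp8 was at 6.15 CPM in GCERAdT 4 against 8.76 to 9.05.

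The ATF4 contrasts differed by the interaction test of edgeR for mt-Tw (1.07), mt-Co1 (0.61) and mt-Atp6 (3.13), all on the log2 scale and with adjusted p between 0.0342 and 0.0427. No call among these was made with library kind as a covariate. WT 1 and 2, GCERAd 2 and 3 and GCERAdT 2 and 3, which may each come from 1 mouse, enter these values as separate libraries. With 2 or 3 of these pairs summed, mt-Atp6 stayed called, whereas mt-Tw and mt-Co1 did not.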

How the results depend on the processing

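Across 1000 alternatives for 49 single-gene results, 870 kept direction and side of the threshold, 111 lost a call, 6 gained one and 13 changed sign. The share ratio of TRACK to WT became -0.71 with nuclear counts as the denominator, and that of GCERAdT to GCERAd became 0.0049 with kind B libraries. Leaving out 1 library gave share ratios of -0.39 to -0.29 for GCERAd against WT, 0.12 to 0.23 for GCERAdT against TRACK, -0.62 to -0.58 for TRACK against WT and -0.15 to -0.04 for GCERAdT against GCERAd. It gave 1 to 3, 0 to 6, 14 to 20 and 0 to 2 called mitochondrial genes in these comparisons, and 0 to 7 for the difference.

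Counts of called genes moved by over 1.5 times as follows. For GCERAd against WT they were 1 with 2 pairs of libraries summed, 4 with kind A, 0 with kind B and 0 with the replicate block. For TRACK against WT they were 9 with kind B and 10 with kind as a covariate. For GCERAdT against TRACK they were 1 with 3 pairs summed, 0 with all 17 samples, kind B or the covariate, and 4 with all genes with a count, DESeq2 or the replicate block. For GCERAdT against GCERAd they were 0 with 2 or 3 pairs summed, all genes with a count or kind B, 2 with DESeq2 or the covariate, 3 with all 17 samples or the replicate block, and 10 with kind A. For the difference they were 6 with DESeq2, 5 with library totals, 1 with kind B and 0 with the covariate. The block gave 15 for TRACK against WT and 3 for the difference. With library totals the median of all genes in GCERAdT against GCERAd moved from -0.003 to 0.106. The causes of these moves were not tested.

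Signs changed in GCERAd against WT for mt-Nd1 (kind A 0.12), mt-Nd2 (covariate 0.019, kind A 0.068, leaving out 1 library -0.091 to 0.010, above 0 without GCERAd 4 or GCERAd 5), mt-Nd5 (kind B 0.0085), mt-Rnr1 (kind A -0.12) and mt-Rnr2 (covariate -0.13, kind A -0.39, leaving out 1 library -0.10 to 0.36, below 0 without GCERAd 4). They changed in GCERAdT against GCERAd for mt-Nd5 (library totals 0.023) and mt-Rnr2 (kind A 0.22), and in TRACK against WT for mt-Ts1 (covariate 1.89). The depth of 53688512 counts or more limits the transfer RNAs, of which 15 never reached 100 counts.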
